A study of Mus musculus with 4 samples.

Results

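Collagens are secreted proteins built from chains that wind around each other into a rod, and they form the scaffold of connective tissue. In the brain they sit mainly outside the neural tissue proper: fibroblasts of the meninges make fibrils, and the cells of blood vessels and the pial surface lay down basement membranes, the thin sheets on which these cells rest. Several types are also made by neurons or glia. The genes described here are the rows of the count table whose symbol names a collagen alpha chain (Col, a type number, a, a chain number), 44 of the 24015 genes in the table, of 27 collagen types. They were compared as fibrillar chains of types I, III and V (6 genes), chains of the basement membrane types IV, XV and XVIII (8 genes) and all other types (30 genes). The rule reads symbols and no expression value, though the set was proposed with earlier results of these data known.

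The RNA came from cerebella dissected from adult C57BL/6N mice, 140 to 150 days old, that were heterozygous for an Arid1b knockout (HT) or were their wild type littermates (WT). Each genotype had 2 libraries, 1 male and 1 female, so that the groups were HT male, HT female, WT male and WT female with 1 library each. The labels name neither individual animals nor the deleted part of the gene. The p-values therefore rest only on the spread between these libraries, largely as pooled over genes. A count over the whole gene shows a transcript level and not the deletion. Arid1b, a DNA-binding subunit of the BAF chromatin remodelling complex, stood at 53.0 and 55.9 CPM (counts scaled to the library's total) in the HT male and female, against 69.9 and 70.9 CPM in the WT male and female. Its log2 fold change was -0.37 ± 0.11 (SE), short of the threshold of 0.05 (adjusted p = 0.243 in edgeR's quasi-likelihood test, adjusted over all genes as everywhere below).

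The libraries held 15950899 to 20616219 counts, of which collagen genes took 0.0671% to 0.0737%. A gene with no count could still be present at 0.146 to 0.188 CPM (3 counts of the total, for counting error only). Markers of granule cells, the main neurons of the cerebellum, were present (10 of 10, with a sum of 3271 to 4946 CPM), and no marker of any listed cell type was at 0 in all libraries. Genes that mark tissue outside the cerebellum differed between libraries. Skeletal muscle markers summed to 156 CPM in the HT male and 5.96 CPM in the HT female, against 5.23 and 10.2 CPM in the WT male and female. Choroid plexus markers summed to 2699 and 1558 CPM in the HT male and female, against 1475 and 1463 CPM in the WT male and female. The WT female stood apart from the other libraries: it held the highest or lowest value of the 4 in 31 of the 43 tested collagen genes (72.1%) and in 61.7% of all tested genes.

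Per kilobase of the longest annotated transcript, a scale on which genes can be compared, the collagens with most transcript were not the classical fibrils of the meninges. Col18a1, the basement membrane collagen that carries heparan sulphate chains and gives rise to the fragment endostatin, came first with 20.5 ± 3.27 CPM per kilobase (mean ± SD, n = 4 libraries). Col9a3, a chain of type IX known for coating cartilage fibrils, followed with 15.4 ± 1.65. Next were Col27a1, a minor fibrillar chain, with 8.37 to 12.9 over the libraries, and Col16a1, a fibril-associated chain, with 5.7 to 10.7, so that their ranges overlapped. Col9a2, the partner chain of Col9a3 in type IX, had 7.68 ± 0.656 CPM per kilobase, and Col11a2 and Col4a2 had 6.5 ± 0.578 and 6.47 ± 1.10, which the spread between libraries does not separate. Col1a2 and Col4a1 came further down, with 4.34 ± 0.245 and 4.23 ± 0.291 CPM per kilobase. Col1a1, Col1a2 and Col3a1, the chains that meningeal fibroblasts are best known for, together made up 5.5% and 5.5% of the summed collagen level per kilobase in the HT male and female, against 5.1% and 5.4% in the WT male and female. The 5 highest genes, Col18a1, Col9a3, Col27a1, Col16a1 and Col9a2, made up 47.6% and 46.8% in the HT male and female, against 47.5% and 52.3% in the WT male and female. Which cells made these transcripts was not tested.

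**Figure D1:**
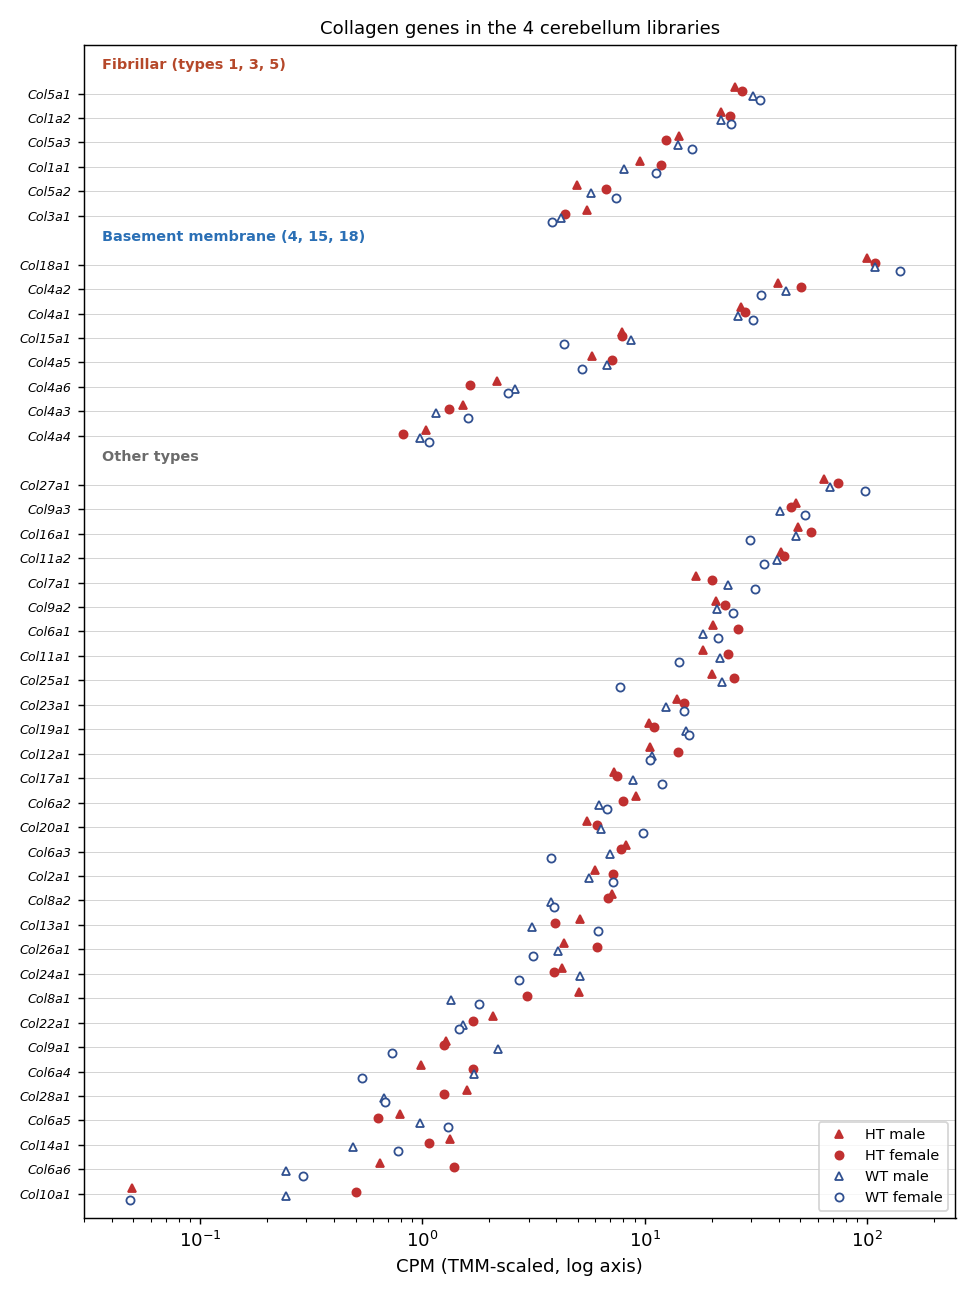
Level of each of the 44 collagen genes in the 4 libraries, in CPM on a log axis, grouped by class and ordered by mean; filled red symbols are HT, open blue symbols WT, triangles males and circles females. Col18a1 is highest, between 100.0 and 141 CPM; Col8a2 shows both HT symbols to the right of both WT symbols, Col19a1 the reverse, and Col25a1 the WT female alone at 7.70 CPM.

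By class, the fibrillar chains made up 10.4% and 10.2% of the collagen level per kilobase in the HT male and female, against 10.7% and 11.2% in the WT male and female. Basement membrane chains held 25.3% and 25.8% in the HT male and female, against 27.3% and 28% in the WT male and female. The other types held 64.2% and 64.0% in the HT libraries, against 62.1% and 60.8% in the WT libraries. The summed collagen level itself was 123 and 134 CPM per kilobase in the HT male and female, against 123 and 133 in the WT male and female, so that the total was close between the genotypes within each sex. In tissue RNA of this kind, fewer cells of a type and less RNA per cell cannot be told apart.

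Of the 44 genes 43 had enough counts to be tested, and Col10a1, with 1 to 8 counts per library, was left out by the filter on low counts. No collagen gene passed an adjusted p of 0.05 between HT and WT (edgeR quasi-likelihood test, 0 of 43), where 0.0198% of all 15117 tested genes passed. DESeq2 also called 0 collagen genes, where it called 34 genes, or 0.317% of the 10721 to which it gave an adjusted p. At least Col8a1, Col8a2, Col6a2, Col6a3, Col20a1, Col15a1, Col3a1, Col5a2, Col4a5 and Col2a1 got none, so it could not call them. The smallest adjusted p of a collagen gene in edgeR's quasi-likelihood test was 0.206. At an unadjusted p under 0.05 stood 9 of 43 (20.9%), 4 higher and 5 lower in HT, where 11.7% of all tested genes did (5.22% higher and 6.46% lower). In 12 of 43 genes both HT libraries lay above both WT libraries (27.9%, against 22.4% of all tested genes), and in 8 both lay below (18.6%, against 22.3%). The shares of non-overlapping genes are near those of all genes. Fits with any library left out had genotype as the only term, so sex was not adjusted for in them. Those without the WT male or the WT female leave 1 library in that group. In them the method took the spread of most genes from a trend over expression level (an infinite prior). The calls of these fits are therefore not read here.

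The classes differed in the share of genes higher in HT, while their medians were small. Among fibrillar chains 2 of 6 were higher in HT and 4 lower, with a median log2 fold change of -0.09. Among basement membrane chains 4 of 8 were higher and 4 lower, with a median of 0.01. Of the 29 tested genes of other types 21 were higher and 8 lower, with a median of 0.195, beside a median of 0.01 and 51.1% higher over all tested genes. The fibrillar median was 0.04 without the HT male, 0.04 without the WT female and -0.19 without the WT male, and the basement membrane median was -0.16 without the WT male. The median of the other types was 0.02 without the HT female and 0.35 without the WT male. These medians describe the lists and carry no test.

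**Figure D2:**
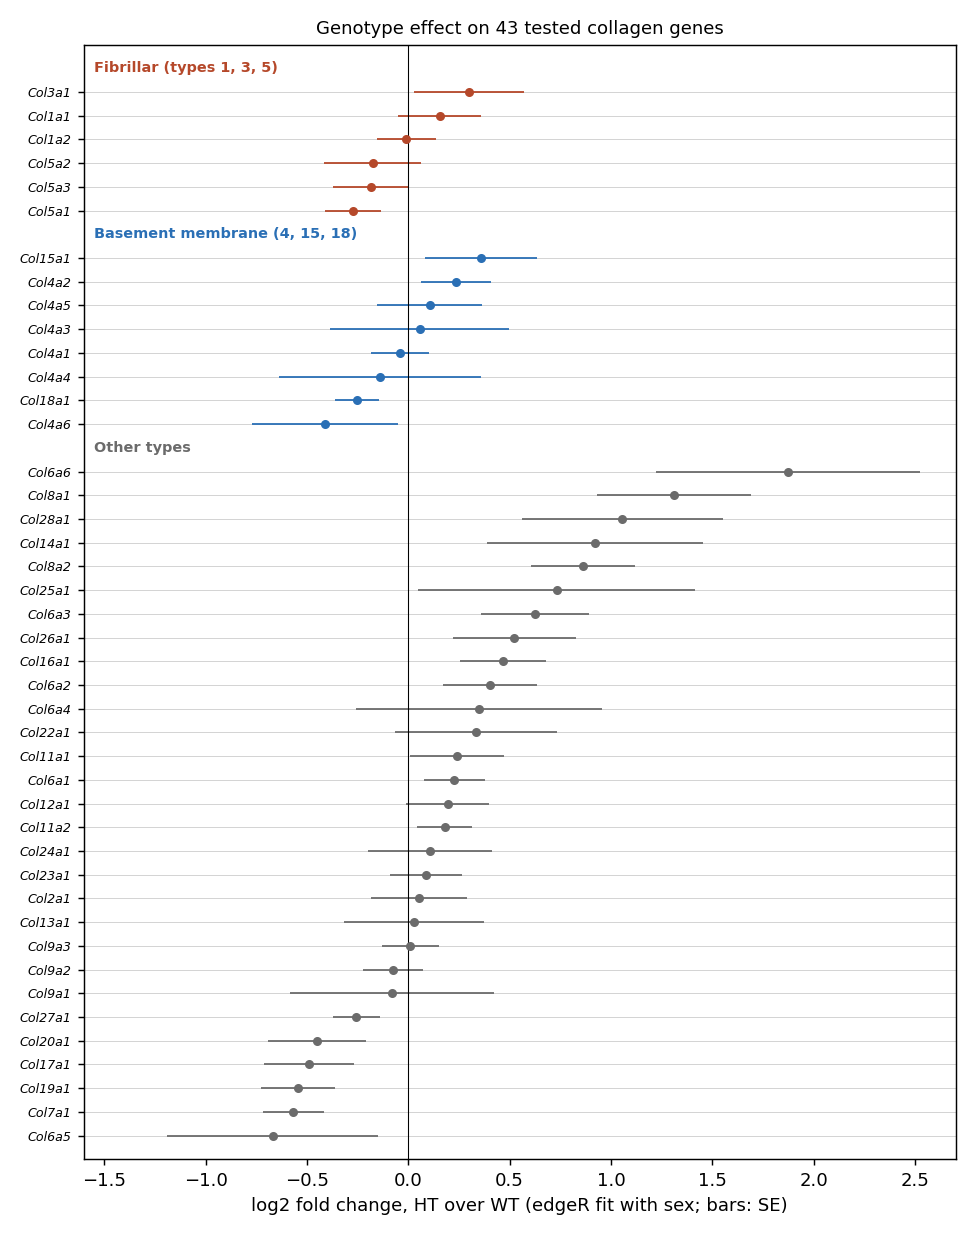
Log2 fold change of each tested collagen gene, HT over WT, with its SE, from the edgeR fit with sex and genotype, in 3 classes ordered by fold change. Fibrillar and basement membrane chains lie between -0.41 and 0.36; the widest values, Col6a6 at 1.87 and Col8a1 at 1.31, belong to other types, and 0 of 43 passed the adjusted threshold.

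The chains of type VIII collagen had the smallest p among collagen genes higher in HT. Its chains, Col8a1 and Col8a2, form short-chain networks beneath the endothelium of vessels and in the basement membrane of the cornea. Col8a2 stood at 7.15 and 6.84 CPM in the HT male and female, against 3.77 and 3.92 CPM in the WT male and female. Both HT libraries were well above both WT libraries, with means of 6.996 ± 0.218 CPM in HT and 3.85 ± 0.109 CPM in WT (SD of the libraries). The fitted log2 fold change was 0.86 ± 0.26 (SE), with an adjusted p of 0.231 (edgeR quasi-likelihood test), which did not pass. Col8a1 stood at 5.08 and 2.95 CPM in the HT male and female, against 1.34 and 1.79 CPM in the WT male and female. The HT male was highest by a wide margin, and both HT libraries lay above both WT libraries. The log2 fold change was 1.31 ± 0.38 (SE), with an adjusted p of 0.223 (edgeR quasi-likelihood test). Without the HT male it was 0.90, and Col8a2 was then at 0.83. Without the WT female Col8a1 was at 1.59 and Col8a2 at 0.89. DESeq2 gave neither chain an adjusted p. Choroid plexus and muscle markers were also highest in the HT male, as was the meningeal fibroblast sum, at 270.3 and 228 CPM in the HT male and female, against 196 and 233 CPM in the WT male and female. Oligodendrocyte and microglia sums were highest in the HT male too, at 14250 and 125.5 CPM. The part of these tissues and cells in the Col8a1 and Col8a2 values was not tested.

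The promoters of the type VIII genes are shown because their chains are partners with the largest joint difference, each as the window from 250 bases before to 50 after the annotated start, taken from RefSeq (build GRCm38.p6). Capitals mark the TATA box (TATAAA), the CCAAT box (CCAAT) and the GC box (GGGCGG), each searched on both strands, so that their reverse complements count too. Col8a1 lies at chr16:57754688-57754987 on the minus strand and Col8a2 at chr4:126286544-126286843 on the plus strand.
Col8a1: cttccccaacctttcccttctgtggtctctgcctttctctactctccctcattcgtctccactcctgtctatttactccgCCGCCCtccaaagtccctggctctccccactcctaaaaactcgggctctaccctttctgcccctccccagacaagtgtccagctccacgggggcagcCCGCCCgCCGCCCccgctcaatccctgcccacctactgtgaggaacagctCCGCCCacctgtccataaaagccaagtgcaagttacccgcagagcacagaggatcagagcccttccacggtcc
Col8a2: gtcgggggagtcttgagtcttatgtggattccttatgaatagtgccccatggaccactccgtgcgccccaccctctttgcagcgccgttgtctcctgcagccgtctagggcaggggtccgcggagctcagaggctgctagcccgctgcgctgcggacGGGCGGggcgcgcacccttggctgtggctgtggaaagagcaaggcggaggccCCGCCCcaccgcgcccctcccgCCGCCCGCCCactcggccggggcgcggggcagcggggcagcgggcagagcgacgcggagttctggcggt
Each window held 4 GC boxes, a pair of which overlap in Col8a2, and 0 of the other motifs. The GC box was found in 35.7% of all 32851 promoter windows and in 23 of 38 collagen windows, which cover 35 of the 44 genes. The CCAAT box was found in 37.4% of all windows and in 13 of the collagen windows. The TATA box was found in 13.6% of all windows and in 5 of the collagen windows.

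The genes with the smallest p among those lower in HT were Col7a1 and Col19a1. Col7a1, which forms the anchoring fibrils that tie the skin's epithelium to the dermis, stood at 17.01 and 20.02 CPM in the HT male and female, against 23.8 and 31.4 CPM in the WT male and female. Both HT libraries were below both WT libraries, and the WT female was highest. Its log2 fold change was -0.57 ± 0.15 (SE), and its adjusted p, 0.206 by edgeR's quasi-likelihood test, was the smallest among collagen genes. It was -0.37 without the WT female and -0.77 without the WT male. Col19a1 encodes a fibril-associated chain that in mice is made by interneurons and takes part in forming synapses of the hippocampus. It stood at 10.4 and 11.05 CPM in the HT male and female, against 15.4 and 15.9 CPM in the WT male and female. The libraries of each genotype were close together and the genotypes did not overlap, with means of 10.7 ± 0.455 CPM in HT and 15.6 ± 0.357 CPM in WT (SD of the libraries). The log2 fold change of -0.54 ± 0.18 (SE) did not pass (edgeR quasi-likelihood test, adjusted p = 0.293), and it lay between -0.60 and -0.50 with any library left out. Col19a1 and Col7a1 had the same order of libraries as the summed markers of granule cells, which were 3271 and 3619 CPM in the HT male and female, against 4246 and 4946 CPM in the WT male and female. All 10 granule cell markers were lower in HT without overlap (22.3% of all tested genes were), with 8 of 10 at an unadjusted p under 0.05. In edgeR 0 of these passed, and DESeq2 called 5, Cbln3, Fat2, Gabra6, Gabrd and Reln. The same order of libraries was seen in Col18a1, Col5a1, Col17a1 and Col20a1. Like Col7a1 and Col19a1, these lay lower in HT without overlap, which leaves few possible orders. How many of all tested genes had this order was not counted. The part of granule cells in the values of Col19a1, Col7a1 or these genes was not tested. The promoter windows of these genes are given for comparison with those of type VIII, in the same marking, at chr9:108953336-108953635 on the plus strand and chr1:24587388-24587687 on the minus strand.
Col7a1: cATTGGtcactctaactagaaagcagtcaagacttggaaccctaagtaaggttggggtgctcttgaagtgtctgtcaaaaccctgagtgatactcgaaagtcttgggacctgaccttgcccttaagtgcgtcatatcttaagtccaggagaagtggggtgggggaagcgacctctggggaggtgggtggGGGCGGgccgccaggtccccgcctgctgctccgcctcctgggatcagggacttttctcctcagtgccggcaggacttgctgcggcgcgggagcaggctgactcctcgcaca
Col19a1: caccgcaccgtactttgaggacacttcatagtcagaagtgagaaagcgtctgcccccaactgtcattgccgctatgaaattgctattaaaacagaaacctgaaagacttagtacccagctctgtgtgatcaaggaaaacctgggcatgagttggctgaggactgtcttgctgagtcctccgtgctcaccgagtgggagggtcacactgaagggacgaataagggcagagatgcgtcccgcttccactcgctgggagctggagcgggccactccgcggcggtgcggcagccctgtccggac
The Col7a1 window held 1 CCAAT box and 1 GC box, and that of Col19a1 held 0 of the motifs.

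Within the fibrillar class no chain reached an unadjusted p of 0.05. Col5a1, the type V chain that starts and limits fibrils, was the nearest, at 25.4 and 27.3 CPM in the HT male and female, against 30.8 and 33.0 CPM in the WT male and female. Its groups did not overlap, and its log2 fold change of -0.27 ± 0.14 (SE) was nearly the same in males (-0.28) and females (-0.27), with an adjusted p of 0.484 in edgeR. Its partner Col5a2 stood at 4.93 and 6.72 CPM in the HT male and female, against 5.71 and 7.41 CPM in the WT male and female, with females above males in both genotypes. Col5a3, a type V chain of restricted distribution, stood at 14.2 and 12.5 CPM in the HT male and female, against 14.04 and 16.3 CPM in the WT male and female, and its groups overlapped.

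In type I and type III collagen, the fibrils of meningeal fibroblasts, the genotypes overlapped for the type I chains but not for Col3a1. Col1a2 stood at 22.1 and 24.2 CPM in the HT male and female, against 22.1 and 24.5 CPM in the WT male and female. The genotypes were level within each sex, and the log2 fold change was -0.01 ± 0.15 (SE). Col1a1, the other chain of type I, stood at 9.52 and 11.9 CPM in the HT male and female, against 8.08 and 11.2 CPM in the WT male and female, with females above males in both genotypes. Its log2 fold change of 0.155 ± 0.21 (SE) was -0.08 without the WT male and 0.40 without the WT female. Those fits had no sex term, and its log2 fold change of females over males was 0.395. Col3a1, the type III chain, stood at 5.52 and 4.39 CPM in the HT male and female, against 4.19 and 3.83 CPM in the WT male and female. Here the groups did not overlap, with the HT male highest as in the marker sum of meningeal fibroblasts, and the log2 fold change was 0.30 ± 0.27 (SE), or 0.13 without the HT male. None of these passed (edgeR quasi-likelihood test, adjusted p = 0.989 for Col1a2, 0.828 for Col1a1 and 0.731 for Col3a1).

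Among basement membrane genes Col18a1 had the lowest p. It stood at 100.0 and 108 CPM in the HT male and female, against 109 and 141 CPM in the WT male and female. The WT female was far above the other libraries, and both HT values lay below both WT values, the HT female by a narrow margin. The log2 fold change of -0.25 ± 0.11 (SE) did not pass (edgeR quasi-likelihood test, adjusted p = 0.396), and it was -0.07 without the WT female and -0.44 without the WT male. Endothelial markers were also highest in the WT female, with a sum of 282 and 251 CPM in the HT male and female, against 306 and 444 CPM in the WT male and female. Mural cell markers summed to 166 and 146 CPM in the HT male and female, against 154 and 218 CPM in the WT male and female. Sums of granule cell, Purkinje cell, and astrocyte and Bergmann glia markers were also highest in the WT female, at 4946, 5155 and 2537 CPM. In both vessel lists the HT female was below the HT male, unlike in Col18a1. The part of any of these cells in the Col18a1 values was not tested.

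Col15a1, the close relative of Col18a1 in vessel walls, was low where Col18a1 was high. It stood at 7.94 and 7.91 CPM in the HT male and female, against 8.63 and 4.31 CPM in the WT male and female. The WT female was lowest by far and the other libraries were close together, so the groups overlapped. Its log2 fold change was 0.36 ± 0.28 (SE), -0.13 without the WT female and 0.88 without the WT male. Of the counts of both genes together, Col18a1 took 92.6% and 93.2% in the HT male and female, against 92.7% and 97.0% in the WT male and female. The exact 95% interval (Clopper-Pearson, counting error only) of the WT female, 96.4% to 97.6%, lay above those of the other libraries, which ended at 94.3% or lower.

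Col4a1 and Col4a2 form the common network of all vessel basement membranes, and the genes lie head to head. Their annotated starts are 21 bases apart, and the promoter windows, printed to show this, share 78 bases. Col4a1 lies at chr8:11312777-11313076 on the minus strand and Col4a2 at chr8:11312555-11312854 on the plus strand, with motifs marked as above.
Col4a1: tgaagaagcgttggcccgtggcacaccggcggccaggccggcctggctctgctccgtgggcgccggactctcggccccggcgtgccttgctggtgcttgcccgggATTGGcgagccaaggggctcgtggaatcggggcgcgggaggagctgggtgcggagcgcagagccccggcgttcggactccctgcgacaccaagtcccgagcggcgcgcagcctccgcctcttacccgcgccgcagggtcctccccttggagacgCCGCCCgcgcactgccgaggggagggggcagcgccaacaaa
Col4a2: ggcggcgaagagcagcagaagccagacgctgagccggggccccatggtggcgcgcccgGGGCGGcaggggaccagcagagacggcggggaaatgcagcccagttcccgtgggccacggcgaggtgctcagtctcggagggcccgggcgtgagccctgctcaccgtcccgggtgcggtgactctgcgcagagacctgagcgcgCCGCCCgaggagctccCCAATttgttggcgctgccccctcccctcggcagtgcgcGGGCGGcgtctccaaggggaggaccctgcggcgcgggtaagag
The Col4a1 window held 1 CCAAT box and 1 GC box, and that of Col4a2 held 1 and 3. Exons of the genes overlap by 22 bases on opposite strands in the annotation, 0.295% of the exon bases of Col4a1 and 0.332% of those of Col4a2. Whether the reads were counted by strand is not stated in the sources used here.

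The levels of these chains did not keep a fixed ratio. Col4a1 stood at 26.97 and 28.1 CPM in the HT male and female, against 26.2 and 30.6 CPM in the WT male and female, a narrow range in which the WT female was highest. Col4a2 stood at 39.8 and 50.4 CPM in the HT male and female, against 43.2 and 33.4 CPM in the WT male and female, and here the WT female was lowest. Their log2 fold changes were -0.04 ± 0.14 and 0.24 ± 0.17 (SE), with adjusted p of 0.946 and 0.656 in edgeR. Col4a2 took 59.6% and 64.2% of the counts of the pair in the HT male and female, against 62.3% and 52.2% in the WT male and female. The exact 95% interval of the WT female was 49.5% to 54.9%, below the 57.0% at which the lowest of the other intervals began. Per kilobase, Col4a2 exceeded Col4a1 by 1.51 and 1.84 times in the HT male and female, against 1.69 and 1.12 times in the WT male and female. The ratio thus set the WT female apart from the other libraries and not HT from WT. The minor type IV chains were lower: Col4a5, on the X chromosome, stood at 5.77 and 7.09 CPM in the HT male and female, against 6.75 and 5.23 CPM in the WT male and female, and its groups overlapped. Col4a6, Col4a3 and Col4a4, known from the basement membranes of kidney and other epithelia, lay between 0.816 and 2.61 CPM.

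**Figure D3:**
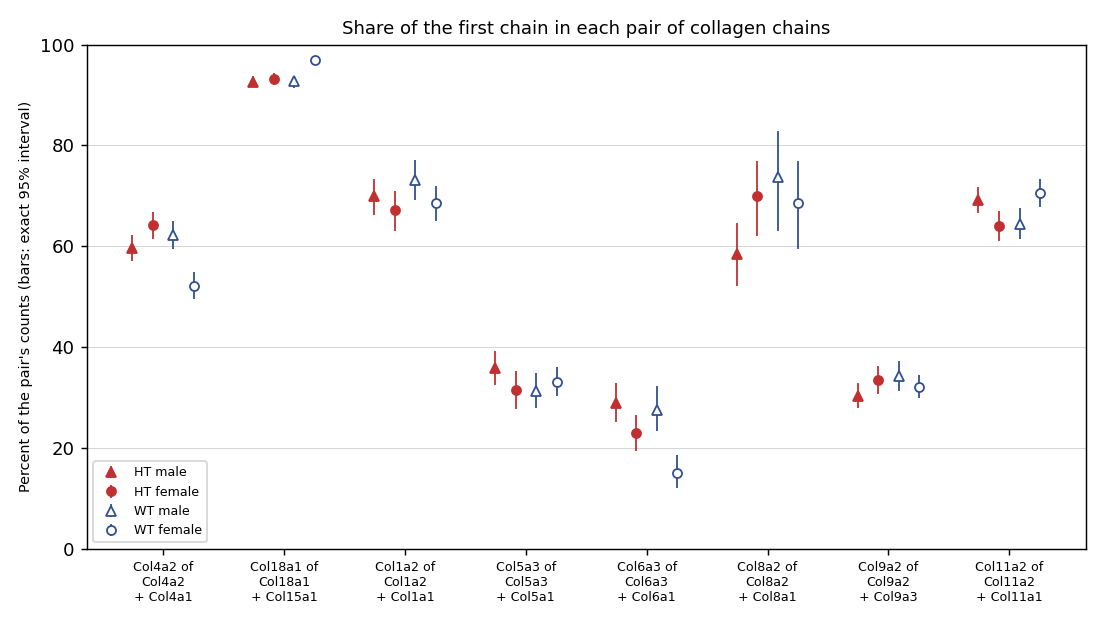
Share of the first-named gene in the counts of 8 pairs of collagen genes in each library, with exact 95% intervals that cover counting error only. In the WT female Col4a2 is 52.2% of its pair and Col6a3 15.1%. Col1a2, Col5a3, Col8a2 and Col9a2 keep overlapping intervals in all 4 libraries. Col18a1 and Col15a1 are related genes and not chains of 1 molecule.

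Type VI collagen makes beaded filaments that link basement membranes to the surrounding matrix, and its classical chains were all higher in HT by the fit. Col6a1 stood at 20.3 and 26.2 CPM in the HT male and female, against 18.3 and 21.3 CPM in the WT male and female; it was higher in HT within each sex, though the groups overlapped. Col6a2 stood at 9.17 and 7.97 CPM in the HT male and female, against 6.20 and 6.73 CPM in the WT male and female, and Col6a3 at 8.23 and 7.78 CPM in the HT libraries, against 6.99 and 3.78 CPM in the WT libraries. For both, the HT libraries lay above the WT libraries. The log2 fold changes were 0.23 ± 0.15, 0.40 ± 0.23 and 0.62 ± 0.27 (SE), with adjusted p of 0.611, 0.538 and 0.393 (edgeR quasi-likelihood test). Without the WT female Col6a3 was at 0.20, and without the HT female Col6a1 was at 0.02. Of the counts of Col6a3 and Col6a1 together, Col6a3 took 28.9% and 22.9% in the HT male and female, against 27.6% and 15.1% in the WT male and female. The related chains Col6a4, Col6a5 and Col6a6, between 0.243 and 1.70 CPM, were near the limit of what these depths measure. Col6a6, named after its values were seen, had 13 and 22 counts in the HT male and female, against 4 and 6 counts in the WT male and female. Its log2 fold change of 1.87 ± 0.65 (SE) was the largest of the family and did not pass (edgeR quasi-likelihood test, adjusted p = 0.301). Col6a5, also named after its values were seen, went the other way, with 16 and 10 counts in the HT male and female, against 16 and 27 counts in the WT male and female. In CPM both HT libraries lay below both WT libraries, and the log2 fold change was -0.67 ± 0.52 (SE, adjusted p = 0.674 in edgeR).

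The fibril-associated collagens, which sit on the surface of other fibrils, included abundant members without a common direction. Col16a1 stood at 49.1 and 55.9 CPM in the HT male and female, against 48.1 and 29.7 CPM in the WT male and female. The WT female alone was low, and the males were level. The log2 fold change of 0.47 ± 0.21 (SE, adjusted p = 0.476 in edgeR) was 0.12 without the WT female. The type IX chains overlapped between the genotypes: Col9a3 stood at 47.9 and 45.7 CPM in the HT male and female, against 40.7 and 52.8 CPM in the WT male and female, and Col9a2 at 20.8 and 22.9 CPM in the HT libraries, against 21.2 and 24.99 CPM in the WT libraries. In the annotation 234 exon bases of Col9a3, 6.07% of the gene, overlap Tcfl5 on the other strand, so part of its counts could belong there. Col9a2 took 30.3% and 33.4% of the counts of this pair in the HT male and female, against 34.2% and 32.1% in the WT male and female, with overlapping intervals. Col9a1, the remaining chain of type IX, had 15 to 36 counts per library. Col12a1, which decorates type I fibrils, stood at 10.6 and 14.1 CPM in the HT male and female, against 10.8 and 10.6 CPM in the WT male and female, the HT female being high. Col20a1 stood at 5.52 and 6.09 CPM in the HT male and female, against 6.38 and 9.78 CPM in the WT male and female. Its groups did not overlap, the HT female lying close below the WT male. The WT female was highest, and the log2 fold change of -0.45 ± 0.24 (SE) was -0.14 without that library.

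Among the minor fibrillar chains, which are best known from cartilage, Col27a1 was the most abundant. It stood at 63.7 and 74.0 CPM in the HT male and female, against 68.3 and 98.4 CPM in the WT male and female; the WT female was high and the groups overlapped. The log2 fold change of -0.26 ± 0.12 (SE, adjusted p = 0.416 in edgeR) was 0.01 without the WT female and -0.52 without the WT male. Col11a2 stood at 41.1 and 42.2 CPM in the HT male and female, against 39.4 and 34.3 CPM in the WT male and female, and Col11a1 at 18.3 and 23.7 CPM in the HT libraries, against 21.7 and 14.3 CPM in the WT libraries. The WT female was lowest for both chains of type XI. Col2a1, the main chain of cartilage, stood at 5.97 and 7.22 CPM in the HT male and female, against 5.59 and 7.17 CPM in the WT male and female, with females above males and no difference by genotype beyond the spread (log2 fold change 0.05 ± 0.24, SE). Col24a1 lay between 2.71 and 5.11 CPM.

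Transmembrane collagens span the membrane of the cell that makes them. Col25a1, a neuronal member first found as a component of human amyloid plaques, had the largest ratio of its highest to its lowest library among the collagen genes with a mean of at least 5 CPM. It stood at 19.97 and 25.1 CPM in the HT male and female, against 22.4 and 7.70 CPM in the WT male and female. The WT female alone was low, at 159 counts against 368 to 405 in the other libraries, and the groups overlapped. The log2 fold change was 0.73 ± 0.68 (SE, adjusted p = 0.792 in edgeR), 0.0038 without the WT female and 1.54 without the WT male. Col17a1, a component of the hemidesmosome of skin, stood at 7.25 and 7.47 CPM in the HT male and female, against 8.87 and 12.01 CPM in the WT male and female. Its groups did not overlap, and its log2 fold change was -0.49 ± 0.22 (SE, adjusted p = 0.426 in edgeR), or -0.27 without the WT female. Col23a1 stood at 13.9 and 15.1 CPM in the HT male and female, against 12.4 and 14.96 CPM in the WT male and female, and the females were level. Col13a1 lay between 3.10 and 6.15 CPM, with the WT female highest and the WT male lowest. The remaining tested genes, Col26a1, Col22a1, Col28a1 and Col14a1, lay between 0.486 and 6.09 CPM; in each of them both HT libraries were above both WT libraries, as in 22.4% of all tested genes, and none passed the threshold.

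The genotype ratios of the sexes were set side by side, each from 1 library over 1 library. The ratio pointed the same way in both sexes in 28 of 43 collagen genes, as in 8833 of 15117 tested genes. It did so in 5 of 6 fibrillar chains, 2 of 8 basement membrane chains and 21 of 29 genes of other types. The median log2 ratio of basement membrane chains was -0.12 in males and -0.19 in females, that of fibrillar chains 0.01 and -0.08, and that of other types 0.06 and 0.30. How far the genotype effect differed between females and males, tested in a fit that assumes no effect of sex itself, passed the threshold for 0 of 43 genes (edgeR quasi-likelihood test; DESeq2 also 0), where 0.0198% of all tested genes passed in either tool. At an unadjusted p under 0.05 stood 6 of 43, where 3.55% of all tested genes did. These were Col11a1, Col16a1, Col4a2, Col25a1, Col6a4 and Col13a1, named after their values were seen, and in each the WT female was the highest or lowest library. With 1 library per genotype and sex, a difference between the sexes and a single library that stands apart cannot be told apart. Between females and males 0 of 43 collagen genes passed (edgeR quasi-likelihood test; DESeq2 also 0), where 0.0595% of all genes did in edgeR and 0.0397% in DESeq2. At an unadjusted p under 0.05 stood 2 of 43, Col18a1 and Col27a1, against 3.82% of all tested genes, and both were highest in the WT female.

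**Figure D4:**
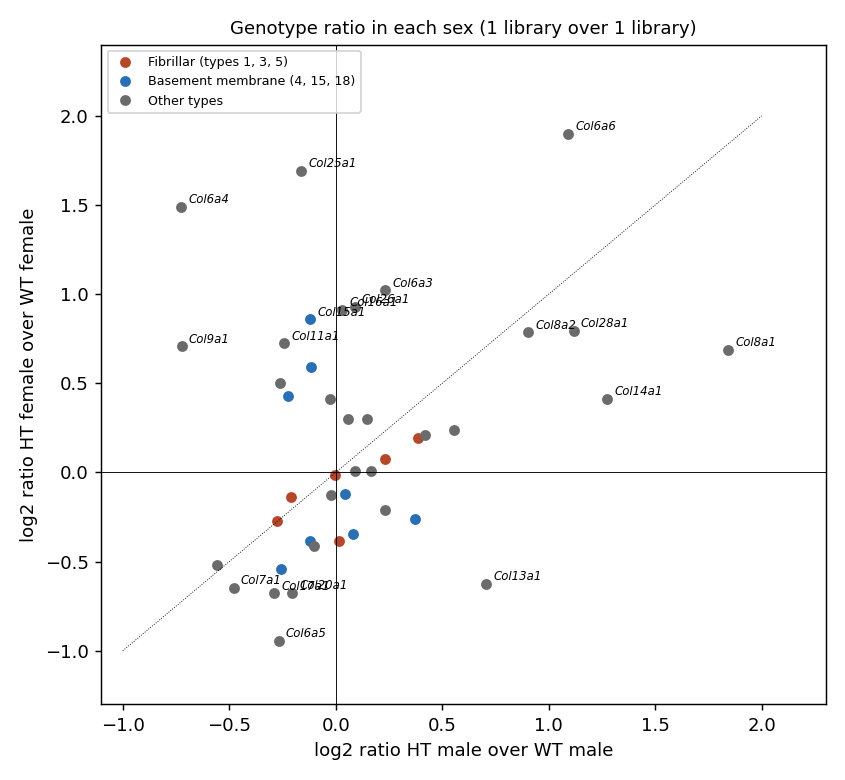
Log2 ratio HT over WT of each tested collagen gene in males (x axis) and in females (y axis), each from 1 library over 1 library, coloured by class; the dotted line marks equal ratios. Col8a1, Col8a2, Col14a1, Col28a1 and Col6a6 lie to the upper right, Col7a1 to the lower left, and Col25a1 at -0.16 in males and 1.69 in females.

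The genes that make, bind and break down collagen were also compared. None of the 30 tested genes of collagen processing and folding passed the adjusted threshold (edgeR quasi-likelihood test; 4 of 30 stood at an unadjusted p under 0.05, against 11.7% of all tested genes, and DESeq2 called 0), and 15 were higher and 15 lower in HT, with a median log2 fold change of 0.01. Bmp1, the protease that trims the C-terminal end of fibrillar procollagens, stood at 147 and 175 CPM in the HT male and female, against 184 and 317 CPM in the WT male and female. Its log2 fold change was -0.59 ± 0.13 (SE, adjusted p = 0.173 in edgeR), and the WT female was far above the rest. Leprel2 and Leprel4, members of the prolyl 3-hydroxylase family, had -0.33 ± 0.14 and 0.36 ± 0.16 (SE). Of 9 tested collagen receptors 5 were higher and 4 lower, and 0 passed (edgeR; 1 at an unadjusted p under 0.05, DESeq2 called 0). Gpr56, an adhesion receptor that binds type III collagen in the developing mouse brain, had 0.29 ± 0.12 (SE). Ddr2, a receptor tyrosine kinase for fibrillar collagen, had -0.44 ± 0.23, and Itga1, the integrin chain for type IV collagen, had -0.52 ± 0.30 (SE).

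Among genes of collagen turnover 8 of 9 were higher in HT, with a median of 0.13, and 0 passed (edgeR; 2 of 9 at an unadjusted p under 0.05, where 11.7% of all tested genes stood; DESeq2 called 1, Timp2). The sign was the same in both sexes in 4 of 9 turnover genes. Timp2, an inhibitor of matrix metalloproteinases, stood at 329 and 307 CPM in the HT male and female, against 265 and 155 CPM in the WT male and female. It did not overlap between the genotypes, though the WT female was low, and its log2 fold change was 0.65 ± 0.16 (SE, adjusted p = 0.22 in edgeR). Mmp15, a membrane-bound metalloproteinase, had 0.43 ± 0.14 and Timp4 had -0.31 ± 0.20 (SE). Small leucine-rich proteoglycans and other fibril partners were higher in 15 of 18, with a median of 0.15, and 0 passed (edgeR; 3 of 18 at an unadjusted p under 0.05, DESeq2 called 0). Their median was 0.19 in males and -0.0052 in females, where 9 of 18 were higher, and the sign was the same in both sexes in 9 of 18. Dcn, decorin, which binds type I fibrils and also marks meningeal fibroblasts, stood at 24.1 and 17.3 CPM in the HT male and female, against 15.1 and 15.1 CPM in the WT male and female. The HT male was highest, and the log2 fold change was 0.44 ± 0.18 (SE, adjusted p = 0.371 in edgeR). Fmod, fibromodulin, had 0.38 ± 0.15 and Fbn1, fibrillin, 0.54 ± 0.25 (SE).

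The partners of type IV collagen in basement membranes lay on the lower side. Of 16 laminin chains, nidogens and other members 3 were higher and 13 lower in HT, with a median of -0.21, and 0 passed (edgeR; 0 of 16 at an unadjusted p under 0.05 and 0 in DESeq2). In 8 of 16 both HT libraries lay below both WT libraries, against 22.3% of all tested genes. The sign was the same in both sexes in 9 of 16. Nid1, nidogen, which joins laminin to type IV collagen, stood at 14.8 and 14.2 CPM in the HT male and female, against 16.7 and 20.97 CPM in the WT male and female, a log2 fold change of -0.37 ± 0.17 (SE). Nid2 had -0.77 ± 0.38 and Lama2, the laminin chain of muscle and vessel basement membranes, -0.31 ± 0.18 (SE). Endothelial markers were lower in 12 of 12 and mural markers in 9 of 10, with medians of -0.54 and -0.22. The endothelial median was -0.13 in males and -0.90 in females, and the mural median -0.05 in males, where 4 of 10 markers were higher, and -0.70 in females. None passed in edgeR; 9 of 12 endothelial and 2 of 10 mural markers stood at an unadjusted p under 0.05 (11.7% of all tested genes), and DESeq2 called 1 endothelial gene, Slco1a4, and 0 mural genes. Slco1a4, an endothelial transporter, had -0.85 ± 0.16 and Abcc9, a pericyte channel subunit, -0.97 ± 0.26 (SE). Meningeal fibroblast markers were higher in 12 of 14, with a median of 0.185, or 0.53 in males and -0.09 in females, and 0 passed (edgeR; 3 of 14 at an unadjusted p under 0.05, DESeq2 called 0). Aldh1a2, their retinoic acid enzyme, had 0.81 ± 0.19 and Foxc1, a transcription factor of the meninges, -0.76 ± 0.29 (SE). Choroid plexus markers were higher in 9 of 10, with a median of 0.55, or 0.82 in males and 0.18 in females. Of these 0 passed (edgeR, with 5 of 10 at an unadjusted p under 0.05, and DESeq2 called 0). Of the basement membrane collagens 4 were higher and 4 lower, beside 13 of 16 lower among their partners; this contrast was not tested, nor was the part of vessel and meningeal cells in it.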

How the data were processed

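Messenger RNA of cerebellum was sequenced as 4 strand-specific poly(A) libraries. These were pooled in 1 lane and read from 1 end for 100 bases, as the labels' protocols state. The authors deposited raw counts per gene symbol, 1 column per library. The submitters' processing notes name STAR, featureCounts, FastQC, edgeR and the build mm9; no version, setting or strand mode was given in these sources. The filter filterByExpr left 15117 of 24015 genes. Counts were scaled by TMM and fitted with edgeR 4.0.16 in R 4.3.3 (robust quasi-likelihood, sex and genotype as terms, 1 residual degree of freedom, median prior degrees of freedom 10.6), with Benjamini-Hochberg adjustment over all tested genes at 0.05. The SE is the fold change divided by the square root of F. Within-sex ratios used a prior count of 2. Replicate numbers only name libraries, and sex was a term. Values in every library are given for collagen genes with a mean of at least 5 CPM and for the 3 of smallest p per class; from each other list, up to 3 genes of smallest p with a mean of at least 1 CPM were eligible. The members and lists were chosen with earlier results of these data known. Lengths and GC content come from the longest GENCODE M21 transcript of a symbol, found for 99.3% of tested genes, and promoters from RefSeq (GRCm38.p6); both builds differ from mm9, so they were matched by symbol. Alternatives were DESeq2 1.42.0 and, within edgeR, its size factors, plain library totals, all genes unfiltered, a minimum of 1 CPM in 2 libraries, genotype alone, a threshold of 0.1, another definition of classes and each library left out. With a library left out, genotype was the only term. The code was checked on simulated data.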

Additional observations from a re-analysis of the deposited data

How the results depend on the processing

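DESeq2 called 0 collagen genes but gave no adjusted p to some, Col8a1 and Col8a2 included. The edgeR count of called collagen genes, 0, was also 0 with both other scalings, the stricter filter, no sex term and an adjusted p of 0.1. It was 3 with no low-count filter (Col8a1, Col16a1 and Col7a1) and 7 with the dependence on GC content and transcript length taken out (the GC-corrected fit), an alternative chosen after seeing the data (these and Col8a2, Col18a1, Col27a1 and Col19a1). It lay between 0 and 15 with a library left out. In the fits without the filter, with the GC correction and without either WT library, the median prior degrees of freedom became infinite, against 10.6. The spread of most genes was then taken from a trend over expression level and not from their own counts. Over all genes the count of 3 was 7 with DESeq2's size factors, 7 with library totals, 553 with no filter, 0 with the stricter filter, 0 without the sex term, 34 with DESeq2, 1129 with the GC correction and 7 at an adjusted p of 0.1, and lay between 0 and 2730 with a library left out. Scaling moved the median of all genes by less than 0.01.

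The fibrillar median was 0.0509 when types II, XI, XXIV and XXVII were counted as fibrillar, and -0.19 to 0.0428 with a library left out. The basement membrane median lay between -0.16 and -0.0253 and that of other types between 0.0233 and 0.35. Of the 30 collagen genes given in every library, 17 kept their direction under every setting. Col9a3 was at -0.0015 without the sex term and -0.0513 with the GC correction, and Col2a1 at -0.0202 with it. With a library left out, log2 fold changes ran from -0.0891 to 0.0618 for Col1a2, -0.43 to 0.0308 for Col5a2, -0.18 to 0.20 for Col9a3, -0.0763 to 0.29 for Col4a5, -0.0778 to 0.40 for Col1a1, -0.0278 to 0.40 for Col12a1, -0.13 to 0.23 for Col2a1, -0.0503 to 0.22 for Col23a1, -0.15 to 0.0694 for Col4a1, -0.13 to 0.88 for Col15a1, -0.52 to 0.0075 for Col27a1, -0.20 to 0.0432 for Col9a2 and -0.0548 to 0.55 for Col11a1. The fits with a library left out had no sex term, so the part of sex in these moves cannot be told apart. The cause of these moves was not tested. No sex or interaction alternative called a collagen gene.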

Other observations

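Across the 43 tested collagen genes, the log2 level of the WT female over the mean of the other libraries had a Spearman correlation of 0.29 with the GC content of the longest transcript and 0.02 with its length; over 15016 tested genes the values were 0.11 and -0.15. These points share a library and are a description. Among collagen genes with a mean of at least 5 CPM, Col25a1 was lowest by this measure, at -1.546, with a GC content of 45.9%. Next were Col6a3 at -1.02, Col15a1 at -0.92 and Col16a1 at -0.78, with 54.5%, 56.4% and 61.4%. The highest were Col20a1 at 0.71, Col7a1 at 0.63 and Col17a1 at 0.61, with 56.1%, 61.6% and 57%.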
